A study of Mus musculus with 18 samples.

Results

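Adhesion genes were compared between wild type (WT) embryonic stem (ES) cells and ES cells overexpressing STAT3-MER. The set held 10 genes, and it was chosen by gene symbol: the cadherins Cdh1, Cdh2 and Cdh11, the integrin subunits Itgb1, Itga5, Itga6 and Itgav, and the surface molecules Epcam, Pecam1 and Icam1. Every probe set of the 3 chips that the chip annotation pairs with one of these symbols alone was taken, which gave 18 of 36701 tested probe sets, 13 on U74Av2 and 5 on U74Cv2. The 10 genes stood among 15964 genes with a probe set. The rule itself uses no measured value, but the genes were chosen with earlier results of these data known.

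WT cells were an FVB/N ES cell line kept in medium with LIF (leukemia inhibitory factor), the cytokine that acts through STAT3 in these cells. The other group was a transgenic FVB/N ES cell line, derived from blastocysts of transgenic mice and kept with 4-hydroxytamoxifen (OHT) and without LIF. In its transgene STAT3-MER, under a chicken β-actin promoter, the whole of mouse STAT3 is followed by the mouse estrogen receptor's ligand-binding part, altered so that OHT switches it on. Both lines were established on growth-arrested mouse embryonic fibroblasts (feeder cells) of the strain CD-1-M-TKneo. Each group was 1 cell line in 3 separately grown dishes on 3 chips, 18 arrays in all. A p-value therefore measured the spread between dishes, while genotype, cell line, LIF and OHT differed together and cannot be told apart.

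Cadherins join cells of a kind to each other and hold the actin cytoskeleton through catenins. Cdh1 (E-cadherin) holds the compact colonies of mouse ES cells together, and Epcam is a further surface molecule of epithelia that ES cells carry. Integrins are pairs of an alpha and a beta subunit that bind cells to the matrix: Itgb1 is the beta subunit shared by the most pairs, Itga6 gives a laminin receptor, Itga5 the main fibronectin receptor and Itgav the vitronectin receptors. Pecam1, first known from endothelium and blood platelets, is also a surface marker of undifferentiated mouse ES cells. Cdh2 (N-cadherin) and Cdh11 are cadherins of mesenchyme, and Icam1 is a ligand of leukocyte integrins that cytokines induce. Cdh1, Epcam, Itga6 and Pecam1 are called the ES and epithelial genes below, Cdh2, Cdh11, Itga5 and Itgav the fibroblast genes, and Itgb1 and Icam1 the shared genes.

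Signals are MAS5 intensities on a linear scale, with a mean of 500.1 to 500.3 on every array once its lowest and highest 2% were left out. They carry no detection call, and probe sets differ in brightness for the same amount of RNA, so a difference in signal between probe sets is no difference in RNA. A mean signal under 200 over the 6 dishes is called dim, as a matter of precision only. The Esr1 probe set, which can read the receptor domain of the transgene, lay between 9.25 and 40.3 in the WT dishes and between 25568 and 31548 in the STAT3-MER dishes, as their labels state. It was the 1 probe set of all 3 chips with an adjusted p below 0.05 (limma, log2 fold change 9.01 ± 0.24 SE, adjusted p = 7.58e-06). All 12 ES cell markers listed had a mean above 200, with no single signal under 537, and a median log2 fold change of 0.10. Markers of endothelium and blood, where Pecam1 is also made, summed to 1358 to 1928 over 10 genes in WT and 1210 to 1983 in STAT3-MER dishes. The 22 markers of feeder fibroblasts summed to 22623 to 56553 in WT and 13248 to 60714 in STAT3-MER dishes. Single signals went down to 2.07 among the markers of endothelium and blood and to 36.5 among the feeder markers. Without a detection call these signals do not show which markers were present. Both sums also join chips by dish number, and WT replicates 1 and 2 may not name the same dishes on all chips. Fewer cells of a kind and less RNA per cell cannot be told apart in such whole-dish RNA.

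RefSeq promoters (build GRCm38.p6) were at hand for 5 of the 10 genes: Epcam, Icam1, Itga5, Itgav and Itgb1. In the 250 bases before each start, both strands were searched for the STAT motif TTCNNNGAA, the E-box CAGGTG and the GC box GGGCGG. The first is the kind of site that STAT factors bind and the second is bound by Snail and Zeb repressors of epithelial genes, while the third is a site of Sp1. Icam1 was the only one of the 5 with the STAT motif, which 7.02% of 32851 promoters hold, and it also holds 1 E-box and 1 GC box. Epcam was the only one with more than one E-box, found in 2.06% of promoters, against 17.2% with at least 1. The GC box, held by 32.7% of promoters, stood in all of them except Itgav. These matches are letters in a window and not sites of binding. The Icam1 window is shown for its STAT motif and the Epcam window for its E-boxes, both in capitals, at base 209 for Icam1 and at bases 64 and 232 for Epcam, counted from the first base shown.
Icam1, chr9:21015690-21015939, plus strand: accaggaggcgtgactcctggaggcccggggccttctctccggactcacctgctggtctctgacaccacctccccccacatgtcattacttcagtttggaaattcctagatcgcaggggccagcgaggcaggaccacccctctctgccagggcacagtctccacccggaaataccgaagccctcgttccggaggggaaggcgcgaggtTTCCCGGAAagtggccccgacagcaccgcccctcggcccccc
Epcam, chr17:87635729-87635978, plus strand: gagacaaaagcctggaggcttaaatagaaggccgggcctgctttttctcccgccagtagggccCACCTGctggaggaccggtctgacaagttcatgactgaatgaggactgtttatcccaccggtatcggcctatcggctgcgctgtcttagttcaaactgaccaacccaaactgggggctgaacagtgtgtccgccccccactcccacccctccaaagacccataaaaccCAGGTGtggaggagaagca

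The ES and epithelial genes were read at mean signals of 200 or more by each of their 7 probe sets. Cdh1 gave 534, 479 and 354 in the WT dishes and 356, 515 and 405 in the STAT3-MER dishes (probe set 98140_at, U74Av2). The ranges of the groups almost coincided, and the highest dish was 1.51 times the lowest. WT cells averaged 455 ± 92.0 and STAT3-MER cells 425 ± 81.4 (SD over 3 dishes), a log2 fold change of -0.09 ± 0.24 (SE; limma, 95% interval -0.65 to 0.47). All log2 fold changes here are STAT3-MER minus WT of log2(signal + 32), which draws the changes of dim probe sets towards 0.

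Epcam had the largest number of probe sets, 4, and they told of different spreads. Its probe set without a suffix on U74Cv2 (170480_at) gave 1250, 1275 and 1328 in WT against 1463, 1158 and 1607 in STAT3-MER dishes. The STAT3-MER dishes lay on both sides of the WT dishes, and the log2 fold change was 0.12 ± 0.24 (95% interval -0.42 to 0.65). On U74Av2 the probe set 99582_at gave 925, 860 and 533 in WT against 1003, 1118 and 508 in STAT3-MER dishes, with 1 low dish in each group. The suffixes i, r and f in a probe set name mark incomplete sets, relaxed design rules and probes shared by a sequence family. Of the pair with a suffix, 134369_i_at had means of 1804 ± 119 and 1753 ± 667 (SD, n = 3). The other, 134370_f_at, gave 1246, 108 and 1055 in WT against 692, 394 and 317 in STAT3-MER dishes. A single WT dish, replicate 2, lay 11.6-fold below the highest there, and the other probe sets of Epcam did not show it.

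Itga6, the alpha subunit of laminin receptors, gave 589, 783 and 611 in WT against 811, 819 and 325 in STAT3-MER dishes (95511_at, U74Av2). Replicate 3 of STAT3-MER stood below every other dish, and the other 2 above every WT dish. The means were 661 ± 106 and 652 ± 283 (SD, n = 3), with a log2 fold change of -0.12 ± 0.35 that turned to 0.30 without that dish. Pecam1 gave 281, 235 and 158 in WT against 197, 273 and 296 in STAT3-MER dishes (97830_at, U74Av2). Its groups overlapped over most of their range (225 ± 62.1 and 255 ± 51.4, log2 fold change 0.18 ± 0.29).

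Itgb1, the shared beta subunit, was read by 3 probe sets. The one without a suffix (141172_at, U74Cv2) gave 631, 785 and 1062 in WT against 370, 794 and 645 in STAT3-MER dishes. It had the lower mean in STAT3-MER cells, 603 ± 215 against 826 ± 218 (SD, n = 3), with 2 of the STAT3-MER dishes inside the WT range. The log2 fold change was -0.47 ± 0.36 (limma, 95% interval -1.28 to 0.35, unadjusted p = 0.228), and it was -0.17 without STAT3-MER replicate 1 and -0.69 without replicate 2. On U74Av2, 100123_f_at gave 13011, 9695 and 13255 in WT against 8062, 14090 and 11176 in STAT3-MER dishes, with a log2 fold change of -0.13 ± 0.25. For 100124_r_at on the same chip it was 0.17 ± 0.30, so the 3 probe sets of Itgb1 did not share a sign.

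Icam1, the inducible ligand of leukocyte integrins, was read by a dim probe set and had the highest log2 fold change of the 18 probe sets. It gave 195, 112 and 93.5 in WT against 187, 331 and 169 in STAT3-MER dishes (96752_at, U74Av2). WT replicate 1 lay above 2 of the STAT3-MER dishes, so the groups overlapped. Its means were 133 ± 53.8 and 229 ± 89.0 (SD, n = 3), a ratio of 1.72, and the log2 fold change was 0.66 ± 0.36 (limma, 95% interval -0.16 to 1.47, unadjusted p = 0.102, adjusted p = 1.00). The interval held 0, and the log2 fold change was 0.91 with WT replicate 1 left out and 0.39 with STAT3-MER replicate 2 left out.

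The fibroblast genes were dim in 5 of their 7 probe sets. Cdh2 (102852_at, U74Av2) gave 35.7, 35.9 and 78.7 in WT against 12.1, 32.7 and 68.2 in STAT3-MER dishes. Replicate 3 was the highest dish of both groups, and the log2 fold change was -0.28 ± 0.35. Cdh11 (139147_at, U74Cv2) gave 34.9, 154 and 279 in WT against 37.4, 118 and 35.5 in STAT3-MER dishes. Dishes of both groups lay at its low end, 8.0-fold below the highest WT dish, and the log2 fold change of -0.82 ± 0.63 was the lowest of the 18 (95% interval -2.24 to 0.60, limma, unadjusted p = 0.225). It was -1.44 without WT replicate 1 and -0.33 without WT replicate 3. Its second probe set, 100006_at on U74Av2, had means of 74.7 ± 10.6 and 63.8 ± 37.4 (SD, n = 3) and a log2 fold change of -0.24 ± 0.35.

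Itga5, the alpha subunit of the fibronectin receptor, gave 18.3, 6.84 and 7.78 in WT against 37.2, 13.2 and 36.1 in STAT3-MER dishes (103039_at, U74Av2). Its unadjusted p of 0.0541 was the smallest of the 18 (limma, log2 fold change 0.49 ± 0.22, 95% interval -0.01 to 0.98, adjusted p = 1.00). WT replicate 1 lay above STAT3-MER replicate 2, and every dish was under 40 on a chip scaled to about 500. Itgav (98366_at, U74Av2), the subunit of vitronectin receptors, gave 20.7, 17.6 and 35.2 in WT against 33.5, 30.1 and 6.07 in STAT3-MER dishes, with a log2 fold change of -0.06 ± 0.25. Both further probe sets of Itgav carry a suffix. In 104385_i_at the means were 372 ± 74.1 and 384 ± 68.1 (SD, n = 3). In 104386_f_at the signals were 3908, 2803 and 4064 in WT against 2017, 5103 and 3899 in STAT3-MER dishes, and the group means, 3592 ± 688 and 3673 ± 1556, differed by less than the spread. Probes of an f set can also read other sequences of a family, and how much of this signal was Itgav was not tested.

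**Figure D1:**
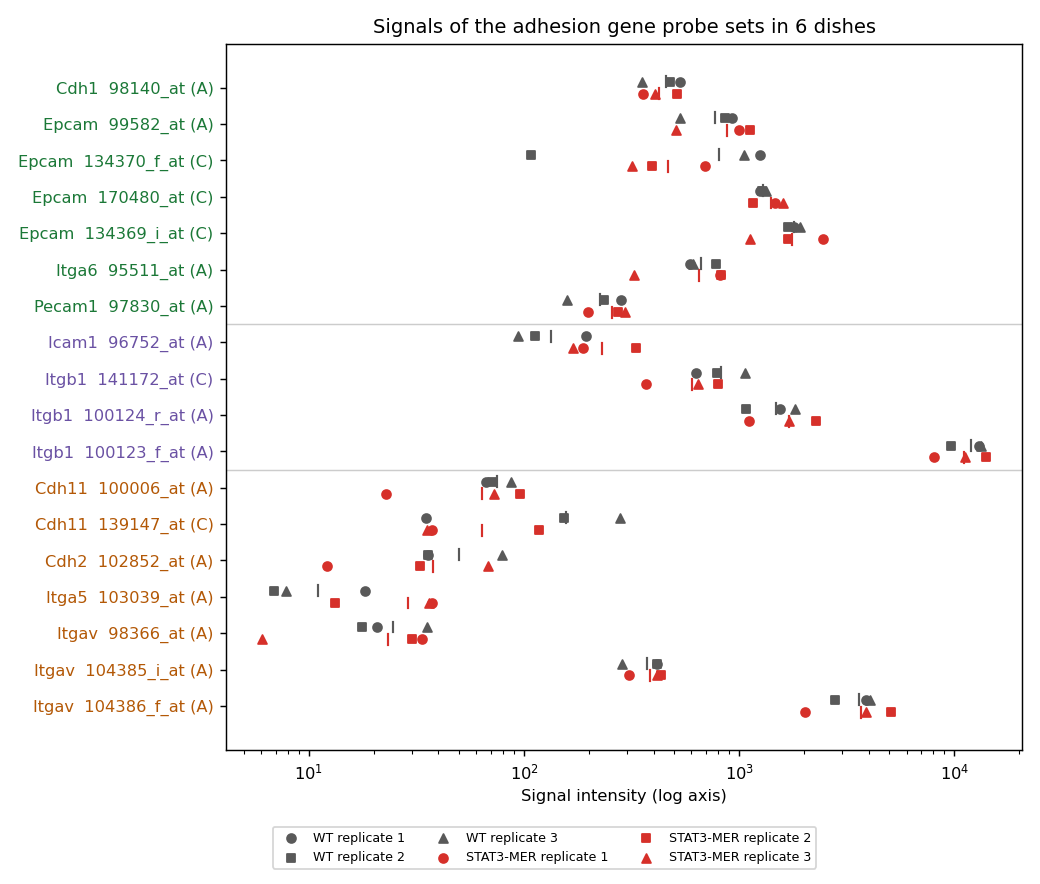
Signal intensity (log axis) of the 18 probe sets in 3 WT dishes (grey) and 3 STAT3-MER dishes (red), with a vertical tick at each group mean, and with the chip, U74Av2 or U74Cv2, given as A or C. The groups overlap in every row: Cdh1 runs from 354 to 534 in WT and from 356 to 515 in STAT3-MER dishes, while most probe sets of the fibroblast genes stay under 200.

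None of the 18 probe sets differed between WT and STAT3-MER cells by the tests used. The number with an adjusted p below 0.05 was 0, beside 1 of all 36701 probe sets (0.00272%), and an unadjusted p below 0.05 was reached by 0, against 3.45% of all probe sets. The thresholds of the study's methods are a ratio of means over 1.5, a difference over 100 and p below 0.1 in the methods' t-test. The study set them on dChip values, and applied here to the MAS5 signals they passed 0, against 1.98% of all. The 3 dishes of one group lay wholly above those of the other in 0 of the 18, against 8.13% of all probe sets. Log2 fold changes were above 0 in 7 probe sets and below 0 in 11. Their medians were -0.09 for the 7 probe sets of the ES and epithelial genes, -0.06 for the 7 of the fibroblast genes and 0.02 for the 4 of the shared genes, beside 0.01 for all probe sets. Taking 1 probe set per gene, these medians were 0.02, -0.17 and 0.09 in the same order, so the order of the classes depended on this choice. A test that was not passed does not show equal levels: among the chosen probe sets of the ES and epithelial genes the intervals reached from -0.92 to 0.69 for Itga6 and from -0.42 to 0.65 for Epcam.

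**Figure D2:**
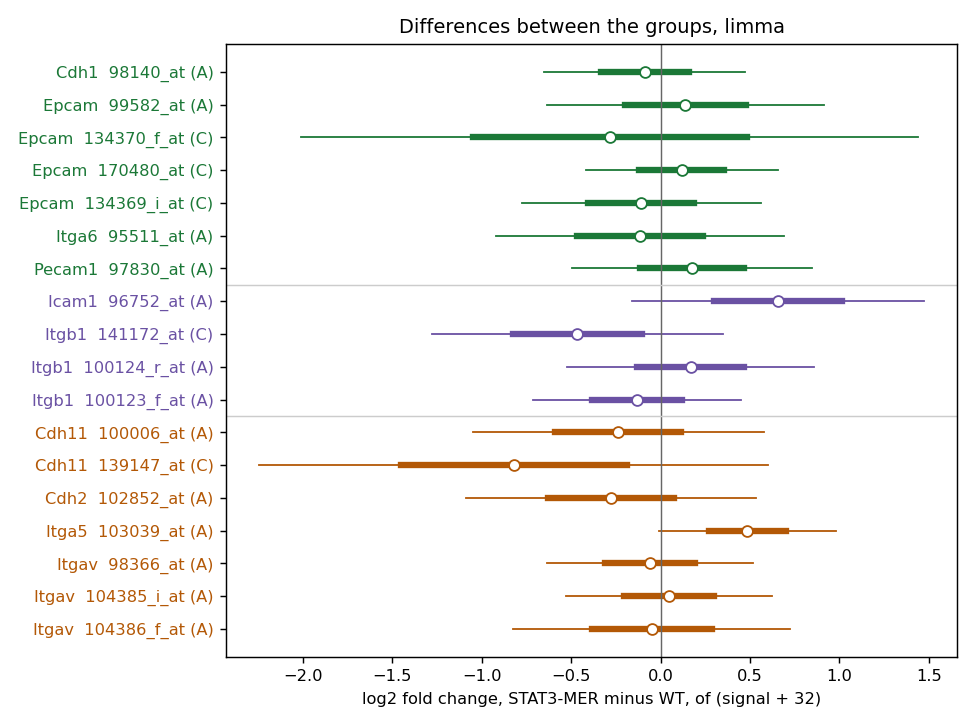
Log2 fold change (STAT3-MER minus WT, of signal + 32) of each probe set by limma, with thick bars for 1 SE on each side and thin lines for the 95% interval. All 18 intervals hold 0, from Icam1 at 0.66 to Cdh11 at -0.82, and that of Itga5 only just does (-0.01 to 0.98).

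Spread between dishes was taken as the SD of log2(signal + 32) within groups. Its median was 0.40 for the ES and epithelial genes, 0.46 for the fibroblast genes and 0.45 for the shared genes, beside 0.42 for all probe sets. How these medians compare depended on the constant added to the dim signals of the fibroblast genes: with 8 in place of 32 the median was 0.67 for the fibroblast genes and 0.40 for the ES and epithelial genes, and with 100 it was 0.25 and 0.38. With 1 probe set per gene it was 0.43 and 0.30. No difference between the classes was tested. Since spread depends on signal and chip, each probe set was set against those of its chip within 1.5-fold of its mean signal. Cdh1 varied with an SD of 0.27, and 60.8% of its 1856 neighbours varied more. The Epcam probe set 170480_at was the steadiest of the 18, with an SD of 0.17 and 90.6% of its neighbours above it. Epcam also gave the other extreme, since 134370_f_at had an SD of 1.32, passed by 1.33% of its neighbours. Itga6 (0.53, 16.9% above), Epcam 99582_at (0.51, 18.4% above) and Itgav 104386_f_at (0.52, 13.8% above) were among the more variable of their neighbours on U74Av2. Cdh11 139147_at had an SD of 0.92, and 20.2% of its neighbours on U74Cv2 exceeded it. Pecam1 (0.32) and Itga5 (0.29) lay near the middle, with 53.3% and 59.5% above them.

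**Figure D3:**
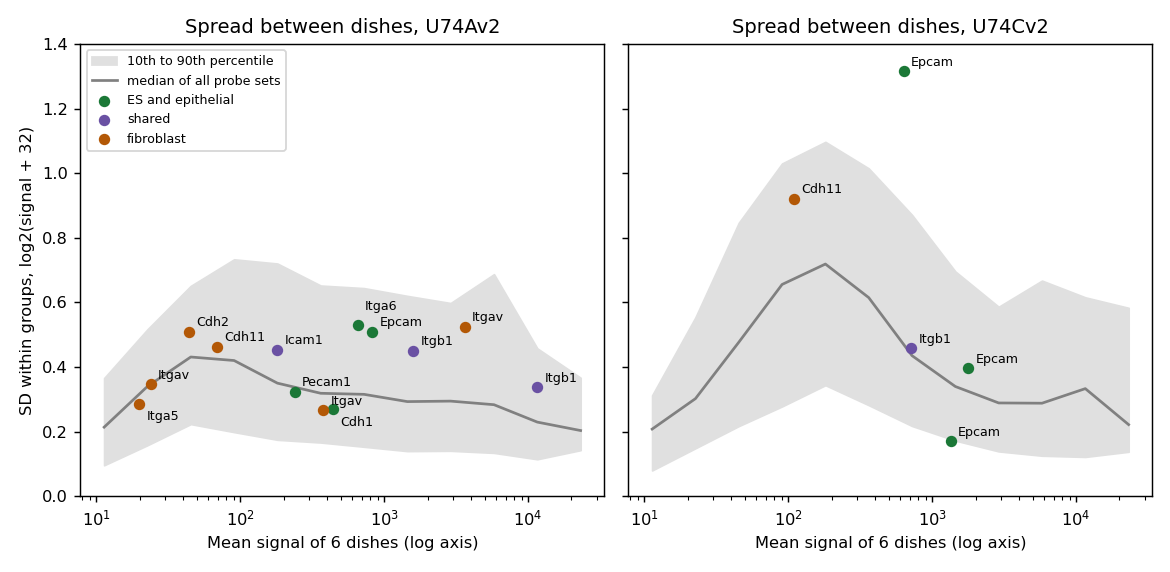
SD within groups of log2(signal + 32) against the mean signal of the 6 dishes (log axis) for the 18 probe sets, on a grey band that holds the 10th to 90th percentile of all probe sets of the chip. One Epcam probe set (SD 1.32) lies above the band and another (SD 0.17) at its lower edge, while the U74Av2 points of all 3 classes lie within it.

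The dish by dish order of the members was set beside the feeder markers. On U74Av2 the summed signal of 21 feeder fibroblast markers was 52959, 22079 and 55240 in the WT dishes and 13151, 59926 and 44987 in the STAT3-MER dishes. WT replicate 2 and STAT3-MER replicate 1 were thus the low dishes, 1 in each group. They were the lowest pair for 16 of the 21 markers (76.2%), against 10.96% of the 12422 probe sets of the chip. That pair was taken from the mean of these same markers, so a high share among them was built in. Itgb1 100123_f_at, Itgb1 100124_r_at and Itgav 104386_f_at had the same lowest pair, and in each of these 3 STAT3-MER replicate 2 was the highest dish, an order shown by 6 of the 21 feeder markers (28.6%) and by 3.26% of the probe sets of the chip. They were singled out after their values were seen. By class, the lowest pair was met in 2 of 3 probe sets of the shared genes, in 1 of 6 of the fibroblast genes and in 0 of 4 of the ES and epithelial genes. Both matches of the shared genes were Itgb1, while Icam1 was lowest in WT replicate 3 and then WT replicate 2. Cdh1 and Pecam1 were lowest in WT replicate 3, and Epcam 99582_at and Itga6 in STAT3-MER replicate 3, neither of which was a dish low in feeder markers. Among the fibroblast genes, Itgav 104385_i_at was lowest in WT replicate 3 and then STAT3-MER replicate 1, as Cdh1 was, and Itgav 98366_at in STAT3-MER replicate 3. Itga5 was highest in STAT3-MER replicate 1, the dish lowest in feeder markers, while Cdh11 100006_at and Cdh2 were lowest there. With the mean log2 level of the feeder markers as a covariate, a choice made after the data were seen, 0 of the 13 probe sets were called. The log2 fold change of Itgb1 100124_r_at then went from 0.17 to 0.32, that of Itgb1 100123_f_at from -0.13 to -0.02 and that of Itgav 104386_f_at from -0.05 to 0.13. The part of feeder RNA in these signals was not tested.

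**Figure D4:**
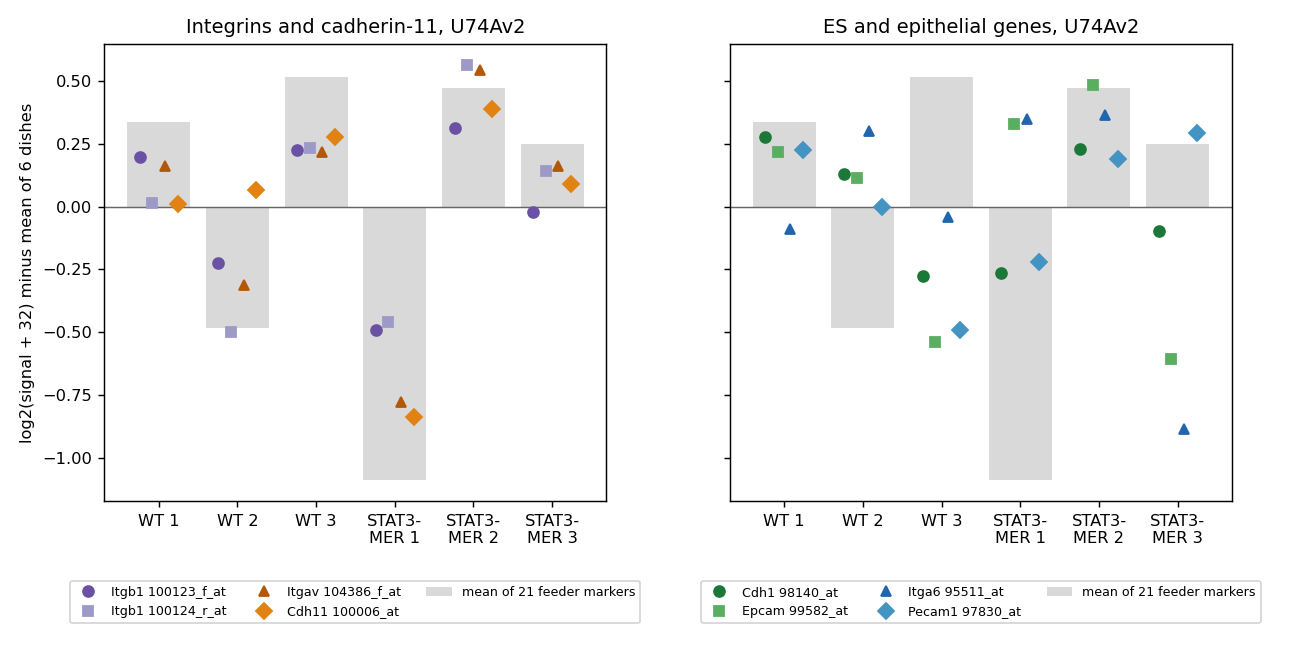
Deviation of each dish from the mean of the 6 dishes, in log2(signal + 32), for 4 probe sets of Itgb1, Itgav and Cdh11 (left) and 4 of Cdh1, Epcam, Itga6 and Pecam1 (right) on U74Av2, with grey bars for the mean of the 21 feeder markers. On the left, both Itgb1 probe sets and Itgav 104386_f_at lie low in WT 2 and STAT3-MER 1 together with the bars. On the right, Cdh1 and Pecam1 lie low in STAT3-MER 1 and none lies low in both. Not drawn are Itgav 104385_i_at and 98366_at, Itga5, Cdh2 and Icam1, whose lowest pair was another.

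Dishes were compared within a chip, since some feeder markers of U74Bv2 and U74Cv2, though not all, were low in WT replicate 1 and not in WT replicate 2. Prrx1 117099_at of U74Bv2 gave 201, 544 and 1313 in WT dishes and Fbln2 165843_i_at of U74Cv2 gave 41.0, 243 and 348, so that the numbers 1 and 2 of WT may not name the same dishes on all chips. On U74Cv2 the lowest dishes of Itgb1 141172_at were STAT3-MER replicate 1 and WT replicate 1, and these dishes, with STAT3-MER replicate 3, were also the lowest of Cdh11 139147_at.

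The genes most like Cdh1 over the 6 dishes were sought among 4164 bright probe sets of named genes on its chip. Ndufb8 (r = 0.989), a subunit of respiratory complex I, Psmg4 (r = 0.978), a proteasome assembly factor, and Cd81 (r = 0.978), a tetraspanin of the cell surface, came first. As many as 74 of the candidates had r above 0.9. For Cdh11 139147_at, among 2475 candidates of U74Cv2 and 11 with r above 0.9, Tkfc (0.959), Gstm2 (0.950) and Zfp787 (0.942) came first. Amplification and feeder share are common to all genes of a dish, and these values describe the dishes only.

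The wider adhesion machinery held 8 lists, of which 115 genes were measured, with 1 probe set per gene. Adjusted p was below 0.05 in 0 of them (limma, smallest adjusted p = 1.00). An unadjusted p below 0.05 was reached by 5 (4.35%), 3 higher and 2 lower in STAT3-MER cells, and in 9 (7.83%) the groups did not overlap. Both shares lie near those of all probe sets, 3.45% and 8.13%, and the median log2 fold change of the 115 genes was 0.00. In the text below, the 2 genes of each list with the smallest p are given with their values, and none is called changed.

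Catenins and their partners, which tie cadherins to actin, were measured for 13 of 13 genes, with a median log2 fold change of -0.01. The smallest p belonged to Nectin1 (0.32 ± 0.35), a cell contact molecule, and to Jup (-0.27 ± 0.39), the catenin plakoglobin. Tight junction and desmosome genes (16 of 17 measured) had a median of -0.15. Cldn7, a claudin of tight junctions, gave 3957, 4361 and 3853 in WT against 2920, 3222 and 2553 in STAT3-MER dishes. Every STAT3-MER dish lay below every WT dish (log2 fold change -0.48 ± 0.20, limma, unadjusted p = 0.0358, adjusted p = 1.00). Pkp1, a desmosome plaque protein, had 0.36 ± 0.24 at signals under 40.

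The other cadherins (15 of 16 measured) had a median log2 fold change of 0.05, and Cdh8, a cadherin of the nervous system, stood first. It gave 30.5, 25.5 and 17.6 in WT against 222, 158 and 124 in STAT3-MER dishes (138483_at, U74Cv2), without overlap and with a mean of 24.5 ± 6.47 against 168 ± 49.7 (SD, n = 3). Its log2 fold change of 1.80 ± 0.40 had an unadjusted p of 0.00137, which did not hold after adjustment over all probe sets (limma, adjusted p = 1.00). Cdh6 followed with 0.34 ± 0.27. Among the other integrins (18 of 19 measured, 13 of them dim), with a median of 0.11, came Itgae, the alpha E subunit that binds E-cadherin. It gave 10.5, 18.3 and 8.13 in WT against 72.0, 58.7 and 26.2 in STAT3-MER dishes (0.89 ± 0.25). Itga4, a subunit of receptors for Vcam1 and fibronectin, gave 25.7, 99.7 and 92.2 in WT against 111, 479 and 172 in STAT3-MER dishes (1.33 ± 0.58). Neither passed the adjusted threshold.

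Among the linkers between integrins and actin (16 of 18 measured, median log2 fold change -0.08), Tln1, the talin that activates integrins, gave 340, 400 and 307 in WT against 520, 443 and 484 in STAT3-MER dishes (0.44 ± 0.21). No dish of one group lay within the range of the other. Groups also did not overlap in 2 genes of this list with lower signals in STAT3-MER dishes, Tln2 and Zyx. Tln2, the other talin, gave 1113, 1141 and 1249 in WT against 942, 934 and 914 in STAT3-MER dishes (-0.32 ± 0.21). Zyx, a focal adhesion protein, had -0.35 ± 0.19 at signals under 41. Integrin ligands (12 of 15 measured) had a median of -0.11, with Lamc1 (0.48 ± 0.27) and Lamb1 (-0.51 ± 0.37), chains of laminin, at the smallest p. Lamb1 was lowest in STAT3-MER replicate 1 and WT replicate 2, the dishes low in feeder markers. Immunoglobulin and other surface molecules (15 of 15 measured) had a median of 0.02, with Icam5 at 0.44 ± 0.23 and L1cam at -0.67 ± 0.66.

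Regulators of the change from epithelium to mesenchyme were measured for 10 of 10 genes, with a median log2 fold change of -0.01. Esrp1, a splicing factor of epithelial cells, gave 140, 379 and 328 in WT against 150, 36.8 and 77.0 in STAT3-MER dishes (160702_at, U74Av2). STAT3-MER replicate 1 lay inside the WT range and the other 2 below it (-1.41 ± 0.47, limma, unadjusted p = 0.0165, adjusted p = 1.00). Ovol1, a repressor that guards the epithelial state, had 0.57 ± 0.35. Snai1, whose product represses Cdh1, was not among the smallest p and had -0.11 ± 0.49.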

How the data were processed

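RNA of 3 WT and 3 STAT3-MER dishes was amplified in 2 rounds by the authors and hybridized to U74Av2, U74Bv2 and U74Cv2, and they deposited 1 linear signal intensity per probe set and array, without detection calls. The submitters' processing notes name MAS5, whose version is not given in the sources used here. The number of arrays limits the precision. Groups and numbers came from the labels, and 1 STAT3-MER array of U74Av2 without a number was taken as replicate 2.

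Each array was scaled to a common trimmed mean per chip, for which 2% was dropped at either end. log2(signal + 32) was compared by trended eBayes after lmFit (limma 3.58.1, R 4.3.3), two-sided and separately for every chip, with Benjamini-Hochberg adjustment over 36701 probe sets at 0.05, after 198 controls were left out. The criteria of the study's methods used a ratio of 1.5, a difference of 100 and p of 0.1 (the methods' t-test, here with unequal variances, a form the methods do not give, scipy 1.17.1), on MAS5 signals in place of the study's dChip values. The fit was tested on simulated data. At the adjusted threshold it called 5 of 67 probe sets with a true log2 change of 1. It called 33 of 67 with a change of 2 and 56 of 66 with a change of 4. Of 36501 unchanged probe sets it called 2. Numpy 2.4.6, pandas 2.3.3 and matplotlib 3.10.9 served for summaries and figures.

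Chip annotation pairs 29131 probe sets with 1 gene, 724 with several and 6846 with none, and 29044 were matched to RefSeq (GRCm38.p6). All probe sets of the 10 genes are given. In full, dish by dish, came the brightest probe set without a suffix for possible cross-hybridization, and others were added after their values were seen. Of each of the 8 wider lists the 2 genes with the smallest p were named, with Snai1 and Tln2 added. Cdh1 and Cdh11 were compared by Pearson correlation with probe sets of named genes on their chip, of mean signal over 200, and the first 3 were named. The genes and lists were chosen with earlier results of these data known. Alternatives were other scalings, 8 or 100 as pseudocount, leaving out dim probe sets, no trend, adjustment chip by chip, the replicate number as a block, leaving out each dish, other forms of the criteria and 1 probe set per gene. A feeder covariate, the brightest probe sets of Itgb1 and Itgav with a suffix, other scalings for the overlap, and the criteria with a dish left out were added after the data were seen.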

Additional observations from a re-analysis of the deposited data

How the results depend on the processing

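In every alternative run, 0 of the probe sets of the 10 genes had an adjusted p below 0.05 by limma, replicate block included (0 called). An unadjusted p below 0.05 was reached by 1 with the replicate block (Itga5), 3 without WT replicate 1 (Itga5, Icam1 and Cdh11 139147_at), 1 without WT replicate 2 (Epcam 134370_f_at) and 1 without STAT3-MER replicate 2 (Itga5). Here and below, a dish was left out by its number on every chip. WT numbers 1 and 2 may not name the same dishes on all chips. Deviations of dishes with the same number correlated at -0.30, -0.33 and 0.29 on U74Av2, at 0.18, 0.21 and 0.13 on U74Bv2 and at 0.11, 0.13 and 0.070 on U74Cv2. On the last 2 chips every dish correlated best with its own number, a hint from the data, while on U74Av2 only replicate 3 did, and WT 1 with STAT3-MER 2 (0.46) and WT 2 with STAT3-MER 1 (0.41) were highest. The numbers were not taken to pair the dishes, since not every pair exceeded 0.1. On U74Av2 the replicate block joined dishes that correlated at -0.30 and -0.33, so on that chip it cannot check a pairing. No block was fitted with the pairs that correlated best on U74Av2. The probe sets of that chip therefore had no fit for such a pairing. By the study's criteria the count was 0 to 1 with a dish left out, the 1 being Epcam 134370_f_at without WT replicate 2. The median spread of the fibroblast genes was 0.25 with a pseudocount of 100 and 0.67 with 8, against 0.46, since a larger pseudocount by construction draws dim signals together. With each dish left out, the median spread ran from 0.30 to 0.46 for the ES and epithelial genes, from 0.29 (without STAT3-MER replicate 1) to 0.53 for the fibroblast genes and from 0.34 to 0.49 for the shared genes. Median log2 fold changes then ran from -0.11 to 0.10, from -0.26 to 0.12 and from -0.20 to 0.26. Of 72 log2 fold changes with a dish left out, 12 in 7 probe sets changed sign: Cdh1 (-0.25 to 0.028), Cdh2 (-0.58 to 0.012), Itga6 (-0.33 to 0.30), Pecam1 (-0.026 to 0.33), Itgav 98366_at (-0.20 to 0.19), Itgav 104386_f_at (-0.33 to 0.33) and Itgb1 100123_f_at (-0.32 to 0.080). Icam1 (0.39 to 0.91), Cdh11 139147_at (-1.44 to -0.33) and Itgb1 141172_at (-0.69 to -0.17) kept their sign. Of the 91 other values, 1 changed sign, Itgav 104386_f_at at 0.13 with the feeder covariate, where the cause was not tested. Signals without a detection call limit what the 6 dim probe sets can show.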
